A study of Mus musculus with 12 samples.

Results

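The cells described here were the 4 cultured cardiac progenitor cells (CPCs) with the highest and the 4 with the lowest level of cell cycle genes, out of 12 single cells in all. They were chosen by a measured value: in 10 of the cells the CPM values (the reads of a gene per 1000000 reads of the cell) of Mcm2, Mcm4, Mcm5, Mcm6, Pcna, Rrm2, Top2a, Mki67, Cdk1, Ccnb2, Birc5 and Tpx2 were summed, and cells 3 and 10 were left out by the same rule. Cells 8, 1, 9 and 2 had sums of 5151, 4911, 4865 and 4142 CPM and are called cycling cells below. Cells 4, 6, 7 and 11 had sums of 863, 576, 215 and 162 CPM and are called low-cycle cells. Just outside the limits lay cell 5 with 3329 CPM and cell 12 with 2280 CPM, so the sets were separated by a pair of cells that belonged to neither. Cells 3 and 10, which were not ranked, had sums of 284 and 490.0 CPM. These 12 genes chose the sets, so they are not a result, and the description that follows concerns other genes.

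All 12 cells were prepared in the same way. They came from hearts of 12-week-old FVB female mice, with 2 hearts pooled for a preparation, and were non-myocytes depleted of lineage-marked cells and sorted for c-Kit with magnetic beads. They were then grown in medium with serum, leukemia inhibitory factor, basic fibroblast growth factor and epidermal growth factor, passaged 5 times and picked singly. No treatment, genotype or time distinguished them, and the labels tie no cell to an animal or a culture, so the 12 cells formed 1 group, the cells of a set were not replicates of a condition, and no test was made. Kit, the gene of the receptor used for the sort, had no count in the 10 ranked cells, which allows up to 0.869 CPM in the shallowest of them (3 counts), and stood at 3.94 CPM in cell 10.

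The depth of the 8 cells ran from 3453708 to 5542016 counts. The number of genes detected ran from 10022 to 11950 in the cycling cells and from 10069 to 11876 in the low-cycle cells, and the medians differed by 579 genes. The mitochondrial share of the counts ran from 1.02 to 2.12% in the cycling cells and from 1.19 to 2.37% in the low-cycle cells. Cells 7, 8, 11 and 12 each had fewer than 11000 detected genes and the other 6 ranked cells more, so 1 cycling cell and 2 low-cycle cells were of the first kind. None of these measures separated the sets.

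**Figure D1:**
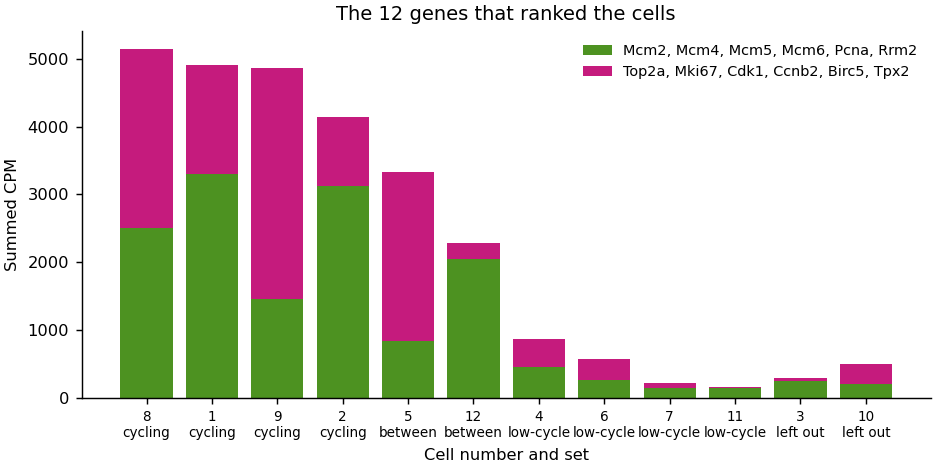
Summed CPM of the 12 genes that ranked the cells, per cell, split into 6 genes of DNA replication (green) and 6 genes of mitosis (pink). The 4 cycling cells stand at 4142 CPM or more and the 4 low-cycle cells at 863 CPM or less, with cells 5 and 12 between them.

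A dividing cell copies its DNA once and then distributes the copies. In G1, cyclin E with its kinase and the E2F transcription factors bring on the genes that license origins, build the replication fork and make deoxynucleotides. Later, in G2 and mitosis, another set of genes encodes cyclins A and B, the mitotic kinases, the spindle motors and the kinetochore proteins that hold chromosomes to microtubules. Promoters of the early group are known for E2F sites. Those of the late group are known for an element called the cell cycle genes homology region (CHR) and for CCAAT boxes, through which the DREAM and MuvB complexes and the factor NF-Y act. Cells that leave the cycle keep both groups low, but whether the low-cycle cells described here had left it was not tested.

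A gene was called separated when the lowest cell of 1 set lay above the highest cell of the other and the medians, each with 5 CPM added, differed at least 2-fold. Among 9604 genes averaging 5 CPM or more over the 10 ranked cells, 331 were separated and higher in the cycling cells, which is 3.45% of them, and 103 were separated and lower, which is 1.07%. Every gene had its difference measured as log2((median of cycling cells + 5 CPM)/(median of low-cycle cells + 5 CPM)), a scale that understates the change of genes with low counts, and the median over all genes was -0.02. Because the sets were chosen by cycle genes of the same cells, genes that vary with those 12 had to appear among the separated ones, and the counts describe these 8 cells. Of the 331 higher genes, 142 belonged to 8 lists of cell cycle genes. None of the 103 lower genes did. The higher count moved to between 357 and 496 when 1 cell was left out, as fewer cells then had to be clear of each other. The lower count moved to between 128 and 238, and it passed 1.5 times its value without cell 1 (178), cell 2 (180), cell 9 (192), cell 11 (155) or cell 4 (238).

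**Figure D2:**
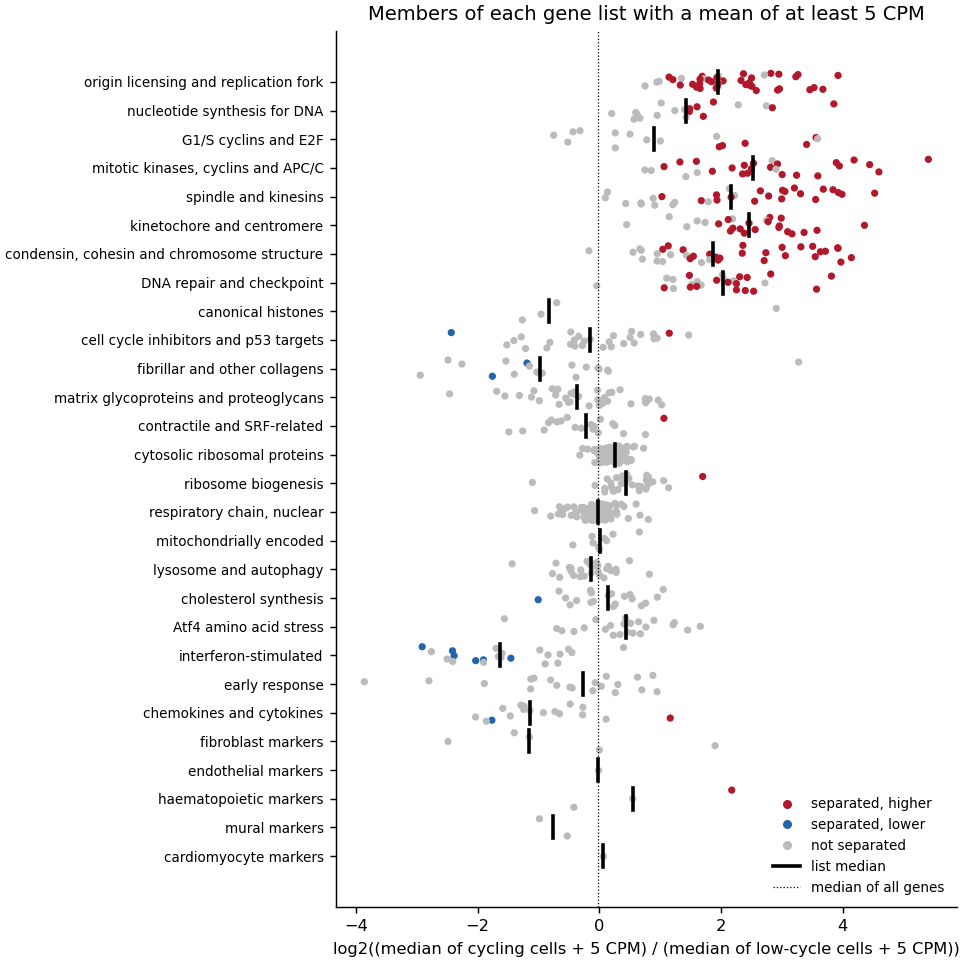
Difference between cycling and low-cycle cells (horizontal axis, log2 of the ratio of medians with 5 CPM added) for the members of each of 28 gene lists averaging 5 CPM or more. Points are genes, red where separated and higher, blue where separated and lower, grey where not separated; black bars are list medians, and the dotted line is the median of all genes. The 8 lists of cell cycle genes have medians from 0.89 to 2.53, and the lowest list median, -1.64, belongs to the interferon-stimulated genes.

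Genes of the replication fork were higher in the cycling cells almost throughout. All 43 genes of this list other than the ranking genes were in the table, 42 passed the limit of 5 CPM, and 34 of these were separated and higher, with none lower. The list median was 1.96. Gmnn encodes geminin, which keeps origins from being licensed again, and stood at 194, 205, 58.5 and 181 CPM in the cycling cells (8, 1, 9 and 2) and 25.9, 12.8, 2.66 and 2.35 CPM in the low-cycle cells (4, 6, 7 and 11). The cycling cells lay above the low-cycle cells, and cell 9 was the lowest of the cycling set. Rad51ap1, a protein of homologous recombination, stood at 28.2, 90.3, 57.6 and 116 CPM in cycling cells 8, 1, 9 and 2, against 2.397, 3.98, 0 and 0 CPM in low-cycle cells 4, 6, 7 and 11, and no read of it was found in cells 7 and 11. Clspn, whose product claspin carries the checkpoint signal at stalled forks, stood at 16, 93.8, 21.8 and 88.4 CPM in cells 8, 1, 9 and 2 and 0.240, 4.52, 0.190 and 0 CPM in cells 4, 6, 7 and 11. Wdhd1, which couples the helicase to the polymerase that primes synthesis, stood at 25.8, 70.9, 28.9 and 101 CPM in the cycling cells (8, 1, 9 and 2) and 0, 0, 0 and 0.180 CPM in the low-cycle cells (4, 6, 7 and 11), so that the low-cycle cells together held next to no read of it. Among the members that were not separated was Cdt1, the licensing factor that geminin binds. It stood at 17.8, 154, 130.4 and 184 CPM in cycling cells 8, 1, 9 and 2, against 24.9, 7.97, 63.5 and 10.1 CPM in low-cycle cells 4, 6, 7 and 11, and the groups overlapped because cycling cell 8 lay below low-cycle cells 4 and 7. The other 7 tested members that were not separated were Orc1, Gins2, Gins3, Pold1, Pold3, Pole2 and Rpa3.

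The list of nucleotide synthesis showed fewer separated genes: 7 of 19 tested members were higher, none lower, and the median was 1.43. It also holds genes of general purine and pyrimidine synthesis. Cad, Ctps, Impdh2, Paics, Ppat and Atic were among its members that were not separated, so its share does not describe deoxynucleotide synthesis alone. Tk1, thymidine kinase, stood at 326, 221, 156 and 128 CPM in cells 8, 1, 9 and 2 and 20.9, 6.11, 10.7 and 4.33 CPM in cells 4, 6, 7 and 11, a 22.5-fold difference between the medians. Dck, deoxycytidine kinase, stood at 162, 112, 33.1 and 144 CPM in the cycling cells (8, 1, 9 and 2) and 17.5, 17, 10.1 and 8.84 CPM in the low-cycle cells (4, 6, 7 and 11). Rrm1, the large subunit of ribonucleotide reductase, stood at 527, 329.8, 457 and 389 CPM in cycling cells 8, 1, 9 and 2, against 158, 170.3, 18.3 and 65.3 CPM in low-cycle cells 4, 6, 7 and 11, so that the ratio of medians was only 3.79 even though the sets did not overlap. Gart, an enzyme of purine synthesis, stood at 76.9, 57.6, 136 and 121 CPM in cells 8, 1, 9 and 2 and 29.2, 26.3, 27.2 and 26.5 CPM in cells 4, 6, 7 and 11. Tyms, thymidylate synthase, was among the 12 members that were not separated. It stood at 294, 242, 79.7 and 284 CPM in the cycling cells (8, 1, 9 and 2) and 133, 131, 96.4 and 124 CPM in the low-cycle cells (4, 6, 7 and 11), with cycling cell 9 below all 4 low-cycle cells.

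Among G1/S cyclins and E2F genes, 5 of 16 tested members were separated and higher, with a list median of 0.89. Ccne1, cyclin E1, stood at 304, 616, 46.5 and 489 CPM in cycling cells 8, 1, 9 and 2, against 34.03, 24.2, 11.8 and 44.9 CPM in low-cycle cells 4, 6, 7 and 11. Cells 8, 1 and 2 lay far above the rest, while cell 9 was close to low-cycle cell 11. E2f8 and E2f7, repressors of the family that are themselves made in S phase, were nearly absent from the low-cycle cells. E2f8 stood at 51.6, 26.9, 44.2 and 63.7 CPM in cells 8, 1, 9 and 2 and 0, 0.531, 0 and 0 CPM in cells 4, 6, 7 and 11. E2f7 stood at 14.5, 42.9, 15.9 and 27.6 CPM in the cycling cells (8, 1, 9 and 2) and 1.44, 0, 0.190 and 0 CPM in the low-cycle cells (4, 6, 7 and 11). Tfdp1, the dimer partner of E2F proteins, was abundant in both sets and stood at 396, 299, 177 and 342 CPM in cycling cells 8, 1, 9 and 2, against 63.99, 63.2, 106 and 86.1 CPM in low-cycle cells 4, 6, 7 and 11. The D-type cyclins and their kinases, which act upstream of cyclin E, were not separated. Ccnd1, cyclin D1, stood at 932, 689.7, 794 and 1201 CPM in cells 8, 1, 9 and 2 and 698, 2077, 912 and 1240 CPM in cells 4, 6, 7 and 11, and its sets overlapped with low-cycle cell 6 the highest. Cdk4 stood at 932, 549, 632 and 559.5 CPM in the cycling cells (8, 1, 9 and 2) and 431, 267, 644 and 407 CPM in the low-cycle cells (4, 6, 7 and 11), again with overlap.

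Sequences upstream of genes of the replication lists are shown because the members moved together and their class is known for E2F sites. Members shown had a match in this stretch, so these promoters do not stand for the lists. Each line gives the 200 bases before the start of the RefSeq transcript, build GRCm38.p6, read 5′ to 3′ on the strand of the gene. The genes are the first 3 by size of the difference that held 1 of the E2F-type motifs TTTCCCGC, TTTGGCGC, TTTCGCGC or TTTGCCGC, or its complement, within these bases, and capitals mark the match. Cdc6 loads the helicase onto origins and lies at chr11:98907951-98908150 on the plus strand. Uhrf1 maintains DNA methylation behind the fork and lies at chr17:56304113-56304312 on the plus strand. Mcm7 is a helicase subunit and lies at chr5:138171884-138172083 on the minus strand.
Cdc6: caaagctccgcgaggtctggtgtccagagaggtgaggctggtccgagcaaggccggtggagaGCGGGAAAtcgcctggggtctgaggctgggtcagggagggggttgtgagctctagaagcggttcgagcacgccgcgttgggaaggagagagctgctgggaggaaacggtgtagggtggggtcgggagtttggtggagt
Uhrf1: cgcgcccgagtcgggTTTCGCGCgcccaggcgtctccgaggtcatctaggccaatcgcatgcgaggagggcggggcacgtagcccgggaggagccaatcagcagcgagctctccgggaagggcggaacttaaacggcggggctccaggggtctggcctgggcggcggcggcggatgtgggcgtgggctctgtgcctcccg
Mcm7: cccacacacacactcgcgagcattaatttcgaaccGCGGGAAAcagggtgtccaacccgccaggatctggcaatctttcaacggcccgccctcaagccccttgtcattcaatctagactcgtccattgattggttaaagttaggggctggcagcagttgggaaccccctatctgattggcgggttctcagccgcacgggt
The window searched for shares was longer, from 250 bases before to 50 after the start. An E2F-type motif was present on either strand in 13.7% of 321 promoters of the separated and higher genes, against 4.19% of 10055 promoters of all tested genes, 3.64% of 110 promoters of the lower genes and 2.27% of all 32851 promoters. Of the 331 higher genes, 276 had a promoter in the table. Only 32 of the 41 separated members of the replication lists had one, fewer than 80%, so a share for them would be void and is not given. Levels of the 3 genes shown here differed as follows. Cdc6 stood at 33.3, 52.7, 11.3 and 78.02 CPM in cells 8, 1, 9 and 2 and 0 CPM in the 4 low-cycle cells, with no read in any low-cycle cell. Uhrf1 stood at 75.99, 153, 74.4 and 124 CPM in cells 8, 1, 9 and 2 and 9.35, 9.56, 8.18 and 8.3 CPM in cells 4, 6, 7 and 11. Mcm7 stood at 182, 140.1, 69.4 and 119 CPM in the cycling cells (8, 1, 9 and 2) and 37.9, 15.4, 19.4 and 22.7 CPM in the low-cycle cells (4, 6, 7 and 11).

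At the main settings the 3 mitotic lists had the largest list medians of per-gene differences, although the share of members that were separated was larger for the replication fork. With a pseudocount of 1 CPM the spindle median, 2.40, lay below those of DNA repair, 2.92, and the replication fork, 2.72. Of 27 tested mitotic kinases, cyclins and subunits or substrates of the anaphase-promoting complex, 21 were separated and higher, none lower, and the list median was 2.53. Ccna2, cyclin A2, at chromosome 3, 36564865 to 36572150 on the minus strand (mm10 coordinates from GENCODE vM21), had the largest difference of the separated genes averaging 20 CPM or more, 5.40 on the log2 scale. It stood at 299, 148, 609 and 155 CPM in cycling cells 8, 1, 9 and 2, against 0.959, 4.52, 0 and 0 CPM in low-cycle cells 4, 6, 7 and 11. Fbxo5, the inhibitor of the anaphase-promoting complex also called Emi1, at chromosome 10, 5799160 to 5805600, stood at 142, 88.9, 54.1 and 188 CPM in cells 8, 1, 9 and 2 and 0 CPM in the 4 low-cycle cells. With all low-cycle cells at 0, its median was at least 133-fold higher in the cycling cells, set against 3 counts in the shallowest cell. Aurkb, the kinase of the chromosomal passenger complex, stood at 254, 185, 379 and 101 CPM in the cycling cells (8, 1, 9 and 2) and 1.198, 21.5, 9.51 and 0 CPM in the low-cycle cells (4, 6, 7 and 11). Ccnb1, cyclin B1, stood at 286, 217, 784 and 258 CPM in cycling cells 8, 1, 9 and 2, against 20.1, 19.9, 0.571 and 0 CPM in low-cycle cells 4, 6, 7 and 11, and cell 9 held far more of it than the other cycling cells. Bub1b, which encodes the checkpoint kinase BubR1, stood at 123, 53.3, 154 and 21.5 CPM in cells 8, 1, 9 and 2 and 4.31, 2.12, 0 and 0 CPM in cells 4, 6, 7 and 11. The 6 members that were not separated were Ccnf, Ube2c, Ube2s, Pttg1, Cdc25b and Wee1.

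Genes of the spindle and the kinetochore were also higher in the cycling cells. Of 31 tested spindle and kinesin genes 19 were separated and higher, with a median of 2.16, and of 25 kinetochore and centromere genes 18 were, with a median of 2.46. Nusap1, which bundles spindle microtubules, stood at 237, 129, 288 and 79.5 CPM in the cycling cells (8, 1, 9 and 2) and 2.397, 25.5, 0.190 and 3.97 CPM in the low-cycle cells (4, 6, 7 and 11). Hmmr, a spindle protein, stood at 153, 93.5, 502 and 105 CPM in cycling cells 8, 1, 9 and 2, against 34.03, 6.91, 0 and 0 CPM in low-cycle cells 4, 6, 7 and 11. Kif22, a kinesin that pushes chromosome arms toward the equator, stood at 142, 82.5, 308 and 35.8 CPM in cells 8, 1, 9 and 2 and 9.35, 3.72, 1.71 and 0 CPM in cells 4, 6, 7 and 11. In all 3 of these genes cell 9 held the most of the 4 cycling cells, and cells 1 and 2 the least. Kif23, a kinesin of cytokinesis, stood at 108, 38.2, 288 and 38.02 CPM in the cycling cells (8, 1, 9 and 2) and 0.959, 1.86, 0 and 0 CPM in the low-cycle cells (4, 6, 7 and 11). Ndc80, which grips microtubules at the kinetochore, stood at 141, 96.4, 268 and 78.5 CPM in cycling cells 8, 1, 9 and 2, against 1.92, 4.78, 0 and 0.180 CPM in low-cycle cells 4, 6, 7 and 11. Incenp, the scaffold of the passenger complex, stood at 73.1, 97.3, 79.7 and 60.99 CPM in cells 8, 1, 9 and 2 and 3.12, 5.05, 0.951 and 2.71 CPM in cells 4, 6, 7 and 11, an even level across the cycling cells. Tubulins and the histone of centromeres were not separated. Tubb5 stood at 1968, 1703, 1803 and 1154 CPM in the cycling cells (8, 1, 9 and 2) and 568, 1688, 672 and 1501 CPM in the low-cycle cells (4, 6, 7 and 11), with cycling cell 2 within the low-cycle range, and Cenpa stood at 158, 41.4, 427 and 61.7 CPM in cycling cells 8, 1, 9 and 2, against 71.2, 78.6, 19.8 and 22.4 CPM in low-cycle cells 4, 6, 7 and 11, where cycling cells 1 and 2 lay below low-cycle cells 4 and 6.

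Promoters of mitotic genes are shown for the same reason, with the first 3 genes that held a CHR-type motif, TTTGAA or TTCGAA on either strand, within the 200 bases before the start. Bub1b lies at chr2:118598011-118598210 on the plus strand. Kif22 lies at chr7:127042421-127042620 on the minus strand. Ect2, the activator of RhoA in cytokinesis, lies at chr3:27153879-27154078 on the minus strand. Capitals mark the CHR-type match alone.
Bub1b: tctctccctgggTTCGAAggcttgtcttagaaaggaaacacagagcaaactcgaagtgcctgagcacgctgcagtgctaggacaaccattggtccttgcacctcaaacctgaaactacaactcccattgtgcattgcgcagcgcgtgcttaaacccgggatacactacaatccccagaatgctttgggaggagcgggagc
Kif22: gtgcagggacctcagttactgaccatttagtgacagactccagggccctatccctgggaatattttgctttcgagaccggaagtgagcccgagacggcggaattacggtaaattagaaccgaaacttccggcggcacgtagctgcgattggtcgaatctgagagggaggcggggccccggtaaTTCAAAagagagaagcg
Ect2: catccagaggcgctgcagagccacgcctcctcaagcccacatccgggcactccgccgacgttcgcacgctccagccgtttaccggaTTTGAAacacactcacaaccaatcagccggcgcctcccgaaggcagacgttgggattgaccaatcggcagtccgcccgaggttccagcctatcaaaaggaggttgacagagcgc
Over the window of 250 bases before to 50 after the start, a CHR-type motif was found in 36 of 52 promoters of the separated genes of the 3 mitotic lists, or 69.2%, and 48 of these 57 genes had a promoter in the table. The share was 34.9% for all separated and higher genes, 13.7% for all tested genes, 13.6% for the lower genes and 19.2% for all promoters. The letters CCAAT, on either strand, were found in 73.1% of the promoters of the mitotic genes, 57.6% of those of all higher genes, 37.9% of those of tested genes and 34.5% of those of lower genes. The E2F-type motifs were found in 2 of the 52 mitotic promoters, or 3.85%, beside 4.19% of those of tested genes and 2.27% of all promoters. These are matches of letters, not measured sites. Ect2 stood at 60.9, 24.3, 349 and 60 CPM in cells 8, 1, 9 and 2 and 8.15, 0.797, 0 and 0.361 CPM in cells 4, 6, 7 and 11.

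**Figure D3:**
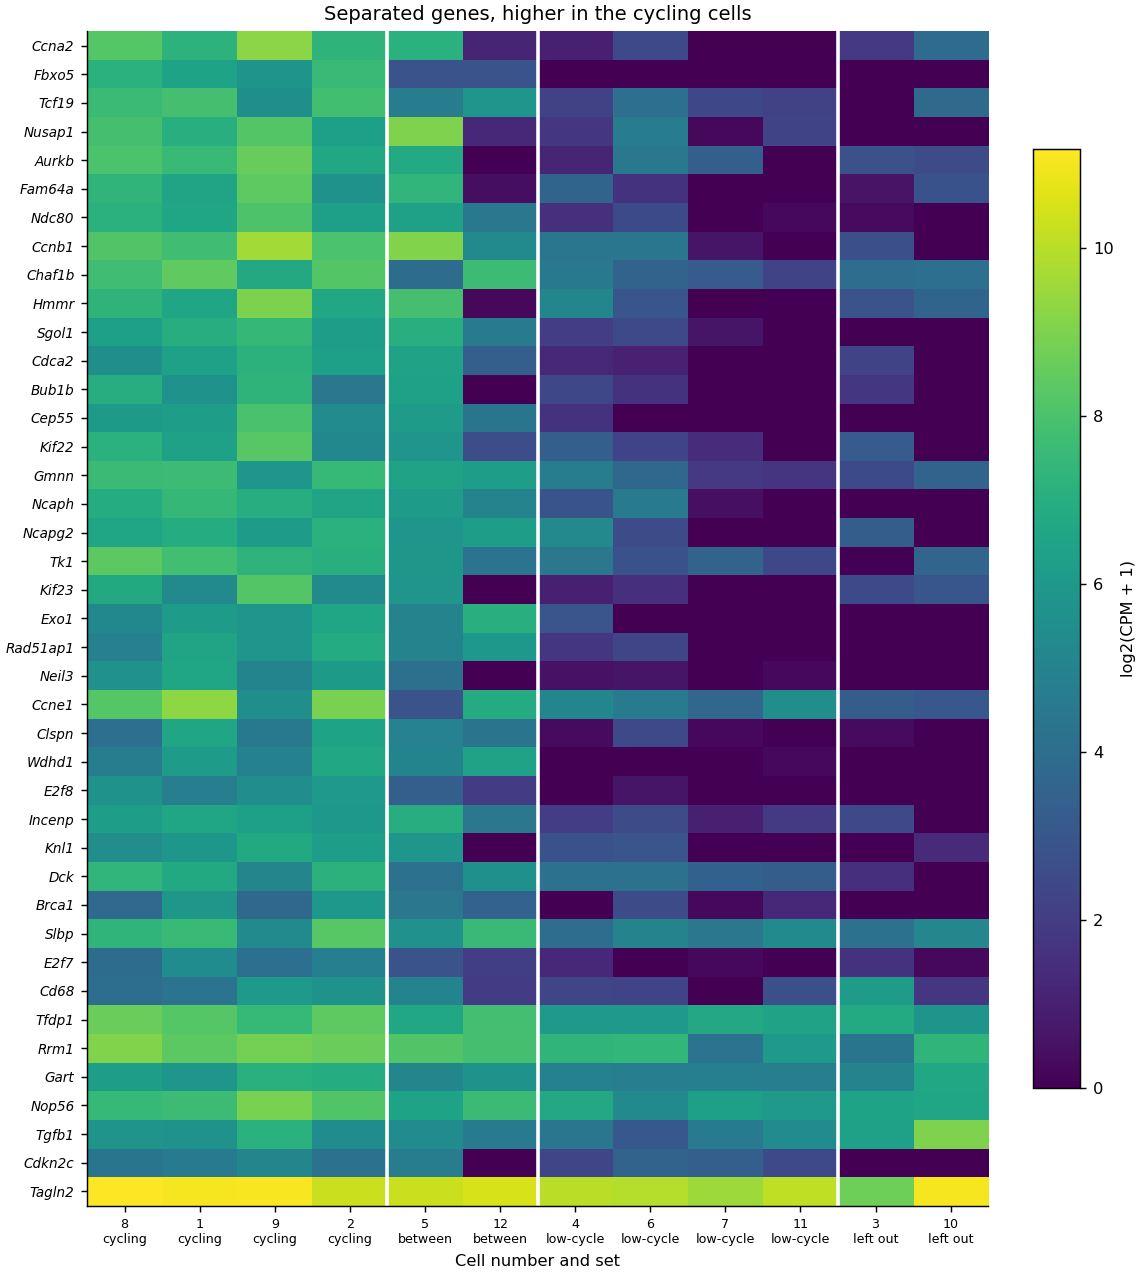
Level of the named genes that were separated and higher in the cycling cells, per cell, as log2(CPM + 1), with genes in order of the difference and cells in order of the ranking sum. White lines divide cycling cells, the 2 cells between, low-cycle cells and the 2 cells left out. Cell 5 is bright for mitotic genes such as Nusap1 and Hmmr and cell 12 is dark for these 2.

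Chromosome structure and DNA repair gave the remaining cycle lists. Of 36 tested genes for condensin, cohesin and chromosome structure 24 were separated and higher, with a median of 1.86. Chaf1b, a subunit of the assembly factor that places histones behind the fork, stood at 212, 349.8, 105 and 289 CPM in the cycling cells (8, 1, 9 and 2) and 22.3, 10.6, 8.37 and 3.97 CPM in the low-cycle cells (4, 6, 7 and 11). Ncaph, a condensin subunit, stood at 119, 174, 126 and 91.1 CPM in cycling cells 8, 1, 9 and 2, against 6.47, 22.3, 0.380 and 0 CPM in low-cycle cells 4, 6, 7 and 11. Cdca2, which directs a phosphatase to anaphase chromosomes, stood at 46.7, 84.5, 143 and 78.5 CPM in cells 8, 1, 9 and 2 and 1.44, 1.06, 0 and 0 CPM in cells 4, 6, 7 and 11. Of the core subunits of cohesin, the ring that holds sister chromatids together, Smc3 and Rad21 were separated and higher, with differences of 1.04 and 1.38, and Smc1a, Stag1 and Stag2 were not separated, with 0.67, 0.69 and -0.17. Among 26 tested genes of DNA repair and checkpoints 15 were separated and higher, with a median of 2.03. Exo1, an exonuclease of mismatch repair, stood at 36, 72.4, 58.1 and 97.5 CPM in the cycling cells (8, 1, 9 and 2) and 6.71, 0, 0 and 0 CPM in the low-cycle cells (4, 6, 7 and 11). Brca1 stood at 13.1, 58.8, 12.6 and 60.5 CPM in cycling cells 8, 1, 9 and 2, against 0, 5.05, 0.190 and 1.44 CPM in low-cycle cells 4, 6, 7 and 11. Slbp, which binds the stem-loop of histone messages, stood at 157, 187, 39.8 and 309 CPM in cells 8, 1, 9 and 2 and 15.1, 30.8, 20.4 and 38.4 CPM in cells 4, 6, 7 and 11. Histone genes themselves could hardly be read: 4 of 68 canonical histone genes passed 5 CPM, their messages mostly lack the poly(A) tail that the method captures, and none of the 4 was separated. Without the filter 1 gene of the list was separated and higher, Hist1h1e, with a difference of 1.63. The list median was -0.83, with 3 of the 4 below 0, but its direction rested on the filter, with 0.17 at 1 CPM and 0.00 without one. Hist1h2bc stood at 9.45, 225, 1.47 and 150.1 CPM in the cycling cells (8, 1, 9 and 2) and 149, 10.6, 387 and 170.3 CPM in the low-cycle cells (4, 6, 7 and 11), with wide overlap. Hist1h4d, the only one of the 4 above 0, stood at 78.9, 63.4, 9.22 and 56.8 CPM in cycling cells 8, 1, 9 and 2, against 4.31, 11.7, 1.71 and 3.07 CPM in low-cycle cells 4, 6, 7 and 11, with cycling cell 9 below low-cycle cell 6.

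Several of the most different genes lay outside the lists. Tcf19, a gene known to be made around the start of S phase, stood at 198, 235, 47.2 and 219 CPM in cells 8, 1, 9 and 2 and 3.595, 16.2, 4.37 and 3.61 CPM in cells 4, 6, 7 and 11. Fam64a, now called Pimreg, stood at 158, 91.2, 334 and 52.6 CPM in the cycling cells (8, 1, 9 and 2) and 11.02, 2.12, 0 and 0 CPM in the low-cycle cells (4, 6, 7 and 11). Sgol1, shugoshin, which protects cohesion at the centromere, stood at 79.3, 126, 174 and 74.8 CPM in cycling cells 8, 1, 9 and 2, against 3.12, 4.52, 0.571 and 0 CPM in low-cycle cells 4, 6, 7 and 11. Cep55, a scaffold of the final cut between daughter cells, stood at 67.5, 74.99, 248 and 40.5 CPM in cells 8, 1, 9 and 2 and 2.16, 0, 0 and 0 CPM in cells 4, 6, 7 and 11. In all 4 the cycling cells lay above the low-cycle cells by a wide margin, and in all but Tcf19 and Sgol1 cell 9 held more than 2 times the amount in any other cycling cell.

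The cycling cells differed among themselves in the balance of replication and mitotic message. Summed over the 2 replication lists, cells 8, 1, 9 and 2 held 6937, 7772, 5554 and 8340 CPM. Over the 3 mitotic lists they held 14800, 11460, 25520 and 10050 CPM. All 4 held more mitotic than replication message by these sums, and the order of the cells was reversed between them: cell 9 had the most mitotic and the least replication message, and cell 2 the opposite. The low-cycle cells 4, 6, 7 and 11 held 2878, 2428, 2011 and 1423 CPM of the replication lists and 4693, 7209, 2129 and 3493 CPM of the mitotic lists. The mitotic sums also count tubulins and Stmn1, which were not separated, so they do not measure mitotic message alone. In cell 11 the spindle list, which holds these genes, made up 2963 of the 3493 CPM. Cells 4 and 6 were not at the floor. Low-cycle cell 4 had 37.4 CPM of Ncapg2, while the other low-cycle cells had at most 5.05 CPM.

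The 2 cells between the sets lay apart in the mitotic genes, and in the replication genes they reached each level in similar numbers of genes. Over the 57 separated genes of the mitotic lists, cell 5 reached the range of the cycling cells in 47 and lay in or below the range of the low-cycle cells in 2. Cell 12 reached the cycling range in 1 and stayed at the low level in 41. Over the 41 separated genes of the replication lists, cell 12 was at the cycling level in 24 and at the low level in 10, and cell 5 in 19 and 9. Single genes of these lists differed in both directions. Wdhd1 stood at 32.0 CPM in cell 5 and 86.6 CPM in cell 12, and Tk1 at 58.9 CPM in cell 5 and 17.9 CPM in cell 12. Ccne1 stood at 117 CPM in cell 12 and 6.37 CPM in cell 5, and Ccnb1 at 39.2 CPM in cell 12 and 535 CPM in cell 5. Cells 3 and 10, left out of the ranking, were at the low level in 301 and 287 of all 331 higher genes. For the 103 lower genes they did not side with the low-cycle cells: they were at the low-cycle level in 38 and 42 and at the cycling level in 55 and 51, and cells 5 and 12 were at the low-cycle level in 48 and 45 and at the cycling level in 39 and 48. A ranking on the 6 replication genes alone put cell 12 in the cycling set in place of cell 9, and one on the 6 mitotic genes alone put cell 5 there in place of cell 2 and cell 12 in the low-cycle set in place of cell 4.

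**Figure D4:**
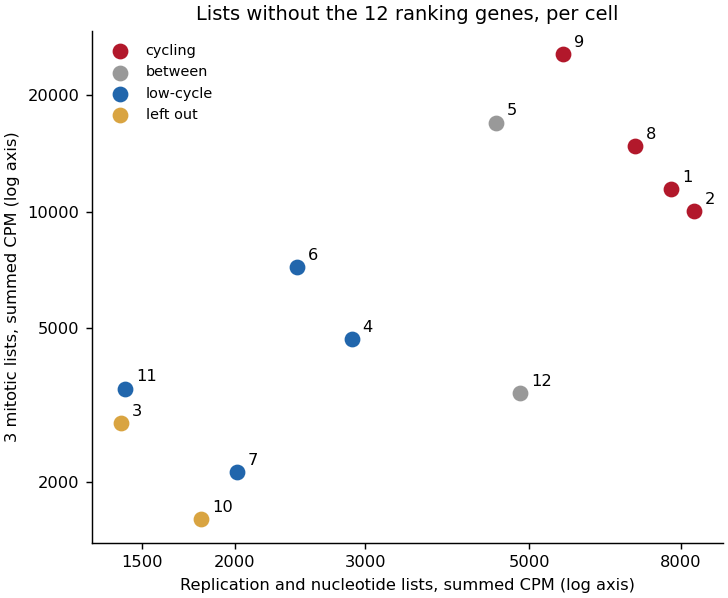
Summed CPM of the 2 replication lists (horizontal, log axis) against that of the 3 mitotic lists (vertical, log axis) for each of 12 cells, without the 12 ranking genes. The mitotic lists include tubulins, which were not separated. Cell 12 has 4858 CPM of replication message beside 3394 CPM of mitotic message, and cell 5 has 4511 beside 17020 CPM.

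Inhibitors of the cycle did not mirror these lists. Of 29 tested cell cycle inhibitors and p53 targets 1 was separated and lower, 1 separated and higher, and the median was -0.15. Cdkn2b, which encodes the Cdk4 and Cdk6 inhibitor p15, stood at 4.54, 10.4, 13.4 and 4.197 CPM in the cycling cells (8, 1, 9 and 2) and 57.8, 66.95, 76.3 and 48 CPM in the low-cycle cells (4, 6, 7 and 11), and the low-cycle cells lay in a narrow range above all cycling cells. Cdkn2c, which encodes the related inhibitor p18, went the other way and stood at 19.1, 23.7, 33.8 and 16.8 CPM in cycling cells 8, 1, 9 and 2, against 4.07, 10.6, 9.32 and 4.51 CPM in low-cycle cells 4, 6, 7 and 11. Cdkn1a, the p53 target p21, stood at 846, 1430, 476 and 833 CPM in cells 8, 1, 9 and 2 and 371, 1050, 601 and 557 CPM in cells 4, 6, 7 and 11, with overlap. Mxd4, a partner of Max that opposes Myc and belonged to no list, stood at 0, 35.03, 11.3 and 35.8 CPM in the cycling cells (8, 1, 9 and 2) and 62.8, 172, 106 and 118 CPM in the low-cycle cells (4, 6, 7 and 11).

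Of the 28 lists, that of genes induced by interferon held the most separated and lower members. All 27 listed genes were in the table, 1 of them with no count in the 10 ranked cells. Of the 27, 22 passed 5 CPM and 6 of these were separated and lower, beside 1.07% of all tested genes, with none higher. The list median was -1.64, or -1.45 without the filter. Ifit1, which binds viral RNA ends and lies at chromosome 19, 34640871 to 34650009 on the plus strand, stood at 0, 0, 0.210 and 0 CPM in cycling cells 8, 1, 9 and 2, against 9.59, 48.4, 576 and 16.8 CPM in low-cycle cells 4, 6, 7 and 11. Only 1 cycling cell held any read of it. Ifi44 stood at 0 CPM in the 4 cycling cells and 1.198, 4.78, 319.5 and 38.4 CPM in low-cycle cells 4, 6, 7 and 11, with cell 7 far above the others and cell 4 close to the floor. Stat2, the transcription factor that carries the type I interferon signal, stood at 2.00, 3.48, 3.35 and 2.47 CPM in the cycling cells (8, 1, 9 and 2) and 15.1, 35.9, 84.8 and 36.8 CPM in the low-cycle cells (4, 6, 7 and 11). Xaf1 stood at 30.2, 14.8, 20.8 and 20.5 CPM in cycling cells 8, 1, 9 and 2, against 57.3, 92.7, 223 and 107 CPM in low-cycle cells 4, 6, 7 and 11, and in both genes cell 7 held the most of the 8 cells. Ddx58, the RNA sensor RIG-I, stood at 0.364, 10.1, 33.1 and 20 CPM in cells 8, 1, 9 and 2 and 41.5, 72.3, 67.9 and 98.3 CPM in cells 4, 6, 7 and 11. Bst2, the membrane protein tetherin, stood at 45.8, 16.2, 47.4 and 20 CPM in the cycling cells (8, 1, 9 and 2) and 47.5, 147, 647 and 50.3 CPM in the low-cycle cells (4, 6, 7 and 11), with low-cycle cell 4 only just above cycling cell 9. Isg15, the ubiquitin-like modifier, was not separated and stood at 3.27, 10.1, 2.31 and 1.73 CPM in cycling cells 8, 1, 9 and 2, against 9.35, 26.6, 827 and 68.9 CPM in low-cycle cells 4, 6, 7 and 11, where cycling cell 1 exceeded low-cycle cell 4. Ifit3b, a relative of Ifit1 outside the list, stood at 0, 0, 1.26 and 4.197 CPM in cells 8, 1, 9 and 2 and 9.59, 26.6, 220.0 and 5.23 CPM in cells 4, 6, 7 and 11. Close copies exist among Ifit genes, and since only uniquely mapped reads were kept, reads that match several copies equally were not counted.

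Cell 7 carried much of this. The summed list stood at 1959, 2829, 1672 and 1555 CPM in the cycling cells 8, 1, 9 and 2 and at 3188, 4430, 7664 and 2512 CPM in the low-cycle cells 4, 6, 7 and 11, so that cycling cell 1 exceeded low-cycle cell 11. Without cell 7 the list median was -0.97 and 4 of its genes were separated and lower. Without cell 4 there were 11 such genes and without cell 1 there were 9. Cells 5 and 12 held 3561 and 3302 CPM, as much as low-cycle cells, cell 3 held 19340 CPM, and cell 10 held 1703 CPM, within the range of the cycling cells. When the 5 highest cells were set against the 5 lowest, which brings cell 5 into the cycling and cell 12 into the low-cycle set, no gene of the list was separated.

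Promoters of 2 of these genes are shown because the class is known for the interferon-stimulated response element (ISRE). The motif TTTCNNTTTC, on either strand, was chosen after the values were seen, and capitals mark it in the 200 bases before the start. Ifit1 lies at chr19:34640689-34640888 on the plus strand and Bst2 at chr8:71537473-71537672 on the minus strand, where the matches overlap.
Ifit1: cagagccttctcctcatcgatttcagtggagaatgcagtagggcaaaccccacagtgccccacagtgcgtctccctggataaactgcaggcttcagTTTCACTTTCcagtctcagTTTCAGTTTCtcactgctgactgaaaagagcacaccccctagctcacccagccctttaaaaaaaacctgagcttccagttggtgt
Bst2: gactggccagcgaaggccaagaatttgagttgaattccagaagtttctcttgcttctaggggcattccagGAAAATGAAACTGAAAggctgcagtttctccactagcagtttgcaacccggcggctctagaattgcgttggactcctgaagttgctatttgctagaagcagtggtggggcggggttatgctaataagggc
Over the longer window 4 of 6 promoters of the separated members held this motif. It was found in 10.9% of promoters of all 103 lower genes, of which 86 were in the table, in 3.74% of those of the higher genes, in 2.86% of those of tested genes and in 3.44% of all promoters.

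Genes of the matrix and of secreted factors that passed 5 CPM had medians below 0, with few separated members. The collagens had a median of -0.98 over 18 tested genes, of which 2 were separated and lower, and it was -0.45 with a filter at 1 CPM and 0.00 with none. Of the 18, 3 had a positive difference, among them Col6a3 with 3.27, which was not separated. Col5a1, a collagen that starts fibril assembly, stood at 82.5, 111, 35.4 and 54.1 CPM in the cycling cells (8, 1, 9 and 2) and 206, 167, 157 and 122 CPM in the low-cycle cells (4, 6, 7 and 11). Col4a6, a basement membrane chain, stood at 15.1, 2.03, 6.29 and 14.8 CPM in cycling cells 8, 1, 9 and 2, against 28.3, 42.2, 57.4 and 52.9 CPM in low-cycle cells 4, 6, 7 and 11. The abundant fibrillar chains overlapped: Col1a1 stood at 896, 109.7, 152 and 56.8 CPM in cells 8, 1, 9 and 2 and 354, 351, 670.5 and 182 CPM in cells 4, 6, 7 and 11, with cycling cell 8 above every low-cycle cell. Among 34 tested matrix glycoproteins and proteoglycans none was separated, and the median was -0.37, or -0.02 without the filter. Chemokines and cytokines had a median of -1.14 over 17 tested genes, 1 of them separated and lower and 1 higher, and a median of -0.48 without the filter. Igf1 had no read in the 4 cycling cells and stood at 1.92, 1.59, 22.1 and 35.0 CPM in the low-cycle cells 4, 6, 7 and 11, so that cells 4 and 6 were close to the floor. Tgfb1 stood at 54.9, 52.4, 140.0 and 42.96 CPM in the cycling cells (8, 1, 9 and 2) and 19.9, 7.44, 22.4 and 41.1 CPM in the low-cycle cells (4, 6, 7 and 11).

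The other lower genes with the largest differences shared no list. Clca3a1, of a family of chloride channel regulators, had the largest such difference of the separated genes averaging 20 CPM or more, -3.87, and lies at chromosome 3, 144729677 to 144760977 on the minus strand. It stood at 63.1, 14.5, 0.210 and 12.1 CPM in cycling cells 8, 1, 9 and 2, against 233, 65.3, 292 and 512 CPM in low-cycle cells 4, 6, 7 and 11, with low-cycle cell 6 only just above cycling cell 8. Foxp2, a forkhead transcription factor, stood at 4.54, 10.4, 5.45 and 28.6 CPM in cells 8, 1, 9 and 2 and 88.4, 58.7, 118 and 85.5 CPM in cells 4, 6, 7 and 11. Prex2, an activator of Rac, stood at 13.8, 15.1, 4.61 and 39.5 CPM in the cycling cells (8, 1, 9 and 2) and 106, 43.3, 79.9 and 131 CPM in the low-cycle cells (4, 6, 7 and 11). Atoh8, a basic helix-loop-helix factor, stood at 50, 53.6, 9.22 and 22.2 CPM in cycling cells 8, 1, 9 and 2, against 79.8, 146, 143 and 161 CPM in low-cycle cells 4, 6, 7 and 11. In Prex2 and Atoh8 cell 9 held the least of all 8 cells. Prkab2, a subunit of the energy sensor AMPK, stood at 4.18, 1.45, 4.402 and 12.8 CPM in cells 8, 1, 9 and 2 and 37.4, 25.2, 17.1 and 64.6 CPM in cells 4, 6, 7 and 11. Serpinb6b, a protease inhibitor, stood at 8.18, 4.05, 0 and 0.494 CPM in the cycling cells (8, 1, 9 and 2) and 11.02, 24.97, 19.8 and 159 CPM in the low-cycle cells (4, 6, 7 and 11).

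**Figure D5:**
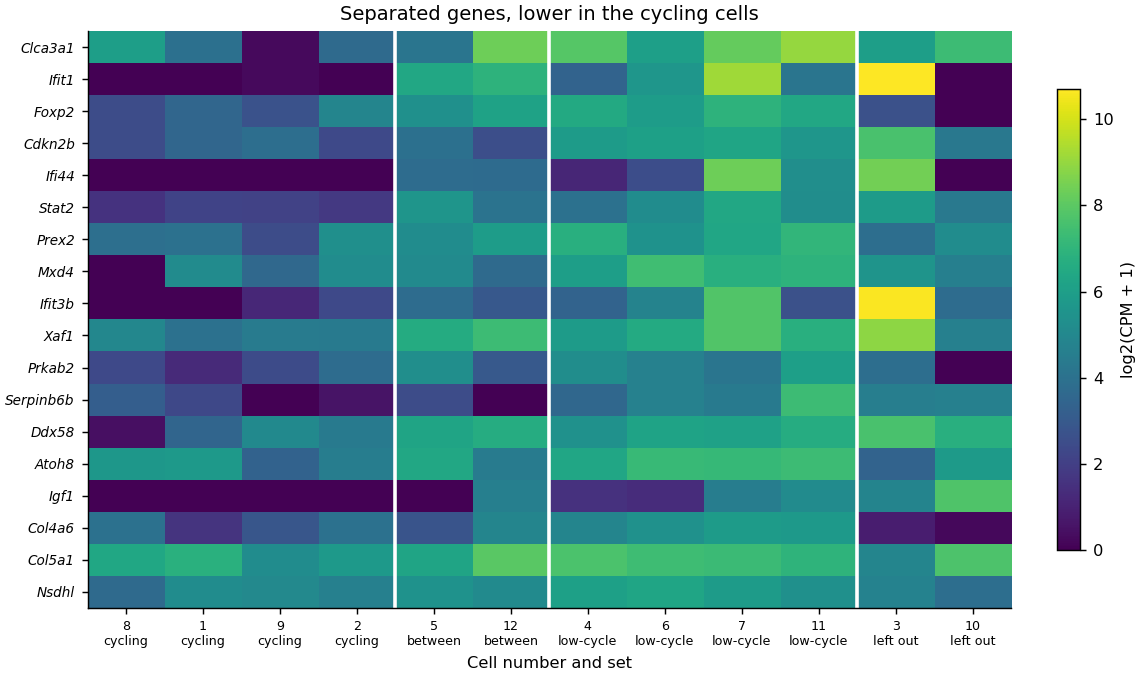
Level of the named genes that were separated and lower in the cycling cells, per cell, as log2(CPM + 1), in the layout of the plot of higher genes. Ifi44 and Igf1 have no read in the 4 cycling cells, and cell 7 has the most Ifit1 of the ranked cells, 576 CPM.

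Lists of growth and metabolism showed small or no differences in their medians. None of 79 tested ribosomal protein genes was separated, yet 69 of them had a positive difference and the median was 0.26. The summed list stood at 45510, 43650, 44270 and 37910 CPM in the cycling cells and at 48510, 35200, 37310 and 31860 CPM in the low-cycle cells, with cell 4 the highest of all 8. Ribosome biogenesis had a median of 0.44, with 28 of 30 genes positive and 1 separated and higher. That gene was Nop56, a core protein of the particles that methylate ribosomal RNA, which stood at 180.0, 202, 489 and 279.8 CPM in cycling cells 8, 1, 9 and 2, against 106, 40.1, 78.2 and 63.5 CPM in low-cycle cells 4, 6, 7 and 11. Nuclear genes of the respiratory chain had a median of -0.02 with none of 74 separated, and the 9 tested mitochondrially encoded genes had a median of 0.00. Lysosome and autophagy genes had a median of -0.13, genes of the Atf4 response 0.43 and early response genes -0.28, with none separated in any of the 3. Single early response genes differed more, with Egr2 at -3.86, while 8 of the 20 tested had a positive difference. The median of that list's sum was 1439 CPM in the cycling cells and 3025 CPM in the low-cycle cells, with overlap. Cholesterol synthesis had a median of 0.14 and 1 separated and lower gene, Nsdhl, at 12, 35.9, 32.1 and 24.4 CPM in cells 8, 1, 9 and 2 and 66.2, 77.6, 57.2 and 40.8 CPM in cells 4, 6, 7 and 11. Contractile and SRF-related genes had a median of -0.22, and the 1 separated member, Tagln2 or transgelin 2, stood at 2324, 2077, 2165 and 1257 CPM in the cycling cells (8, 1, 9 and 2) and 1053, 975, 748 and 1118 CPM in the low-cycle cells (4, 6, 7 and 11).

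Among markers of other cell types, 1 gene was separated, and the sums of all 5 lists overlapped between the sets. For the haematopoietic list, 4 of 10 markers had no count in the 10 ranked cells, the sum ran from 25.5 to 75.6 CPM in the cycling cells and from 15.1 to 35.0 CPM in the low-cycle cells, and Ptprc, the defining CD45 gene, was at 0 in 3 cells of each set. In 3 of the 4 cycling cells that sum was above every low-cycle cell. Cd68 alone was separated and stood at 15.4, 18.2, 64.4 and 52.1 CPM in cycling cells 8, 1, 9 and 2, against 4.07, 3.72, 0 and 5.59 CPM in low-cycle cells 4, 6, 7 and 11. For the endothelial list, the sum ran from 0.629 to 13.3 CPM in the cycling cells and from 3.97 to 30.2 CPM in the low-cycle cells, beside 9810 CPM in cell 10. The cardiomyocyte sum ran from 2.72 to 59.1 CPM and from 0 to 6.47 CPM, and 7 of its 10 markers had no count. The mural sum ran from 22.2 to 145 CPM and from 17.0 to 3737 CPM, where Acta2 made up 3668 CPM of the highest value, in cell 11. Fibroblast markers had a sum from 536 to 2840 CPM in the cycling cells and from 1477 to 2186 CPM in the low-cycle cells. In 3 of the 4 cycling cells that sum was below every low-cycle cell, and 5 of the 10 markers passed 5 CPM, with a median of -1.15 and none separated, or a median of 0.00 without the filter. Of these 5, 3 were collagens that are also counted above, and Pdgfra had a difference of 1.90. The part of these markers in the differences above was not tested.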

How the data were processed

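Messenger RNA of 12 single cultured CPCs was measured with the Smart-Seq v4 kit, which has no molecular identifiers, and Nextera XT libraries. The authors mapped reads to mm10 with STAR 2.5.2b, kept uniquely mapped reads and deposited raw read counts per gene, without normalization. The counting program, annotation and strand rule are not given in the sources used here. Counts were scaled to CPM of the cell's total, which ran from 3453708 to 5690184 counts over the 10 ranked cells, and the floor of 3 counts was 0.527 to 0.869 CPM. Floors and intervals cover counting error only. The sets, the 28 lists and the rule for named genes were chosen with earlier results of these data known. Named were up to 4 separated members per list by size of difference, and the 15 highest and 15 lowest separated genes averaging 20 CPM or more. In lists without a separated member, the 2 members with the highest mean were eligible as values. Genes outside this rule (Kit, Cdt1, Tyms, Ccnd1, Cdk4, Tubb5, Cenpa, Cdkn1a, Isg15, Bst2, Pdgfra, Ptprc, Cdc6, Uhrf1, Mcm7, Ect2, Smc1a, Smc3, Rad21, Stag1, Stag2, Hist1h1e, Col6a3 and Egr2) were chosen after their values were seen. A few genes are not reported here. Medians were compared, with no p-value, since labels name no culture or animal. Symbols matched GENCODE vM21 for 98.4% of genes. Promoters came from RefSeq, build GRCm38.p6. Scaling, filters, pseudocounts, set size, ranking and depth were varied, with TMM factors from edgeR. The separation rule was tested on simulated counts whose spread was assumed and whose sets were arbitrary. That test does not give its error rate in these cells.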

Additional observations from a re-analysis of the deposited data

Results flagged for a closer look

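In groups of 4 cells the highest or lowest value was compared with the others by its gap over the whole range (Dixon's ratio), for the sum of each list and for each named gene. Of 228 groups, 28 held a cell that stood apart, 11 in the cycling and 17 in the low-cycle set, and chance flags about 1 in 20 groups of normally spread values. That rate is no yardstick for the 28 flags. The values were CPM, whose spread was not checked to be normal, and some groups share counts, as Acta2 and the mural marker sum do. In 5 of the flags 3 of the 4 cells were at 0. The causes were not tested.

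Cycling cell 9 was high in mitotic genes: Ccnb1 stood at 784 CPM, Hmmr at 502 CPM and Cep55 at 248 CPM, where the other cycling cells reached at most 286, 153 and 75.0 CPM. The same cell was low for Gmnn, 58.5 CPM beside at least 181 CPM, high for Tgfb1, 140.0 CPM beside at most 54.9 CPM, and the only cycling cell with a read of Ifit1, at 0.210 CPM. Cycling cell 8 held the most fibroblast marker message, 2840 CPM beside at most 749.9 CPM, including 896 CPM of Col1a1, and the most cardiomyocyte marker message, 59.1 CPM, all of it Tnnt2. Cycling cell 1 stood apart in early response genes, with 4057 CPM beside at most 1486 CPM.

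Low-cycle cell 4 held more message of some cycle genes than the other low-cycle cells: Ncapg2 at 37.4 CPM, Exo1 at 6.71 CPM, Cep55 at 2.16 CPM and E2f7 at 1.44 CPM. Its mt-Cytb, 6678 CPM, was also above the other low-cycle cells, which had at most 4338 CPM. Low-cycle cell 6 held more Nusap1 (25.5 CPM), Tcf19 (16.2 CPM), Clspn (4.52 CPM) and E2f8 (0.531 CPM) than the other low-cycle cells, and 5748 CPM of cell cycle inhibitors and p53 targets beside at most 3513 CPM. Low-cycle cell 7 was high for Ifit1 at 576 CPM, Ifi44 at 319.5 CPM and Ifit3b at 220.0 CPM. Low-cycle cell 11 held 3737 CPM of mural marker message, of which 3668 CPM was Acta2, 159 CPM of Serpinb6b and the only low-cycle read of Wdhd1, at 0.180 CPM.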

How the results depend on the processing

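No paired analysis was possible because all cells form 1 group. The counts of separated genes, 331 higher and 103 lower, were 333 and 103 with median-of-ratios size factors, 325 and 110 with TMM factors and 332 and 98 in counts thinned to 3453708 per cell. The lower count was 41 with a pseudocount of 20 CPM, 68 with a filter at 20 CPM and 247 with no overlap alone. With the 2-fold line alone the counts were 727 and 555, of 3 against 3 cells 556 and 354, and of 5 against 5 cells 157 and 22, where 155 and 18 of the genes were among the main ones. With all 12 cells ranked, 540 genes were higher and 69 lower, of which 291 and 23 were among the main ones, the medians were 2.70 for the replication fork, 3.41 for mitotic kinases and -0.35 for collagens, and 6 of the 8 cells kept their set. The 6 replication genes alone kept 7 cells and the 6 mitotic genes alone kept 6. Within the cells with more detected genes 364 genes were lower. Within those with fewer, 1 cycling against 2 low-cycle cells, 1269 were higher and 1725 lower, the medians were -0.32 for collagens and -2.74 for interferon-stimulated genes, and that of fibroblast markers turned from -1.15 to 0.48. The replication fork median was 2.72 with a pseudocount of 1 CPM, and that of collagens 0.00 without a filter. Leaving out 1 cell gave 357 to 496 higher and 128 to 238 lower genes, and medians of 1.81 to 2.32 for the replication fork, 2.23 to 3.01 for mitotic kinases, -1.28 to -0.64 for collagens and -1.998 to -0.97 for interferon-stimulated genes. Of the recomputed values that answer a comparison, 28 moved further and 140 moved by less than 1.5 times (counts) or less than the spread between cells (medians). The share of separated genes that were higher, 76.3%, was 56.7% with the 2-fold line alone and 42.4% within the cells with fewer genes. Causes were not tested, except that fewer cells and fewer criteria admit more genes by construction. Low counts limit genes under 0.869 CPM.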

Other observations

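Gene families that the lists had not covered were counted by the start of their symbol, and they were chosen after the separated genes were seen. Of 18 tested genes named Nup, nucleoporins of the nuclear pore, 6 were separated and higher in the cycling cells (Nup188, Nup62, Nup93, Nup43, Nup107 and Nup85), or 33.3% beside 3.45% of all tested genes, and none was lower. Their median difference was 1.03 on the log2 scale. Of 7 tested genes named Haus, of the augmin complex that nucleates microtubules inside the spindle, 3 were separated and higher (Haus6, Haus8 and Haus4). Of 3 named Ska, which attach kinetochores to microtubules, 2 were (Ska1 and Ska3).

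Of 240 tested genes named Zfp, Zkscan or Zscan, most of which encode zinc finger proteins, 11 were separated and lower in the cycling cells, or 4.58% beside 1.07% of all tested genes, and 3 were higher, or 1.25%. Their median difference was -0.25. The lower ones were Zkscan1, Zscan21, Zfp398, Zfp260, Zfp719, Zfp768, Zfp445, Zfp36l1, Zfp85, Zfp623 and Zfp251, and many are close relatives that share sequence.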
